A study of Homo sapiens with 6 samples.

Results

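The zinc finger genes of chromosome 19 were taken as the protein-coding genes whose symbol is ZNF followed by a number and which lie on that chromosome in GENCODE 29. The rule found 240 genes among 60483 gene IDs in the count files, and all 240 had a row there. They were followed in RNA-seq of 253J, a human bladder cancer cell line, in 3 siFTO libraries (replicates 4, 5 and 6), transfected with siRNA against FTO, and in 3 control libraries (replicates 1, 2 and 3), transfected with control siRNA. Both groups received siRNA by the labels, although shRNA is described in the methods of the study, and the labels give them 1 medium with serum and no further treatment. The comparison asks which transcripts change when FTO is knocked down. FTO removes the N6-methyladenosine (m6A) mark from RNA. No source states that each replicate was its own culture, so every p-value reflects only how far these samples differed, and that spread may be purely technical.

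Most genes of this family encode repressors of transcription. A row of C2H2 zinc fingers, each a loop that a pair of cysteines and a pair of histidines fold around a zinc ion, reads the DNA, and in many members a KRAB domain near the start of the protein recruits the co-repressor TRIM28. TRIM28 brings in the histone methyltransferase SETDB1 and heterochromatin proteins. Many KRAB proteins silence transposable elements, and the genes arose by repeated duplication, which left them side by side in clusters along chromosome 19.

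In the annotated proteins of the 240 members, a median of 12 fingers was found (range 0 to 39), and the short linker that joins 1 finger to the next was found in 229. A pattern of the KRAB A box was found in 173 members (72.1%), in 31.6% of ZNF genes on other chromosomes and in 0.146% of the other coding genes there. No match says only that these letters were not found in the chosen protein. The coding sequences of 4 linkers, each with the finger after it, are shown because the rest of the report turns on how alike and how rich in G and C the members are. The capitals mark the 5 codons of the linker, and the sequences come from GENCODE 29 transcripts on GRCh38, all within 1 coding exon.
ZNF845, chr19:53351723-53351806, plus strand: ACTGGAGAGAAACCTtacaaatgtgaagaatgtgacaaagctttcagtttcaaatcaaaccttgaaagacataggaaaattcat
ZNF587, chr19:57859535-57859618, plus strand: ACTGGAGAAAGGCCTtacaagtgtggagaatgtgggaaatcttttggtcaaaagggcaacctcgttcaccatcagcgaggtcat
ZNF417, chr19:57909072-57909155, minus strand: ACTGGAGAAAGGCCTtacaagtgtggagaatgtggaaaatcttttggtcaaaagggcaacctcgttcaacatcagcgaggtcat
ZNF358, chr19:7519762-7519845, plus strand: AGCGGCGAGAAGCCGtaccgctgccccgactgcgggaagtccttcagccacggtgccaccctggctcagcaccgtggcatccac

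The stretches of ZNF587 and ZNF417 differed at 2 of 84 bases, whereas those of ZNF587 and ZNF358 differed at 38. G and C made up 33.3% of the bases in ZNF845, 47.6% in ZNF587, 45.2% in ZNF417 and 69.0% in ZNF358. ZNF417 was picked for its likeness to ZNF587 after its values were seen. Over whole genes, a median of 4.75% of the 50-base stretches of a member's exons also occurred in another gene, and in 63 members the share was 10% or more (highest 86.8%). By whole gene spans, introns included, 99 members overlapped a gene on the same strand and 127 a gene on the other strand. Overlap of exons was not counted. With no strand setting stated, reads from any bases that both genes transcribe cannot be told apart.

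Total counts were 13547263, 15709975 and 13162731 in siFTO 4, 5 and 6, against 10991789, 16183317 and 19891269 in control 1, 2 and 3. FTO itself had 20.2, 20.7 and 15.7 CPM (read counts relative to the scaled library size) in siFTO 4, 5 and 6, against 31.8, 21.4 and 31.2 CPM in control 1, 2 and 3. Its log2 fold change of siFTO over control was -0.57 (SE 0.16, adjusted p = 0.0209 by edgeR's quasi-likelihood test), with adjusted p of 0.107 without control 1 and 0.113 without control 3. With the trends on exon length and GC content described below taken out, it was -0.9 (adjusted p = 0.00113). Of 15 markers of bladder or other epithelium, 7 were at 10 CPM or more in every library, namely KRT8, KRT18, KRT19, EPCAM, CDH1, PPARG and FOXA1. UPK1B was at 0 in all 6 libraries, and KRT5, KRT7, UPK1A, UPK2, UPK3A, GATA3 and TP63 stayed between 0 and 1.79 CPM. Of 10 intestinal markers, 8 were at 10 CPM or more in each siFTO library and 6 in each control (CDX1, CDX2, REG4, VIL1, CDH17 and LGALS4 in both groups, with MUC2 and KRT20 in siFTO alone), and SPDEF and TFF3 were below 10 CPM throughout.

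Libraries siFTO 4 and 5 stood apart from siFTO 6. Summed over 11 fibroblast and mesenchymal markers, the level on library totals was 1901.5, 2300.6 and 34.2 CPM in siFTO 4, 5 and 6, against 22.7, 21.3 and 21.6 CPM in control 1, 2 and 3. Of the 11, COL1A1, COL1A2, SPARC, FN1, TGFBI and VIM were at 10 CPM or more in siFTO 4 and 5, while COL3A1, DCN, LUM and THY1 stayed between 0.0637 and 1.48 CPM there. Over 13 leukocyte markers the sums were 87.7, 110.1 and 8.58 CPM, against 7.37, 5.25 and 5.13 CPM, and CD3E and MS4A1 were at 0 in every library. Most of these sums in siFTO 4 and 5 came from CD74 (63.7 and 77.1 CPM) and HLA-DRA (16.5 and 25.3 CPM). Both were at most 0.251 CPM in the other libraries. PTPRC was at 0.0738 and 0 CPM in siFTO 4 and 5, and CD14 at 4.36 and 4.39 CPM, against 4.64, 3.34 and 3.42 CPM in control 1, 2 and 3. The part of these markers in the results below was not tested. The main counts are therefore also given for siFTO 6 alone against the 3 controls, a fit that assumes siFTO 6 varies as the controls do.

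Summed over all 240 members, transcripts of the family came to 2405, 2340 and 2567 CPM in siFTO 4, 5 and 6, against 2436, 2412 and 2415 CPM in control 1, 2 and 3. The siFTO libraries lay on both sides of the controls. Of the 240 members, 160 passed the filter on low counts and were tested, and of the 80 others, 24 had no count in any library. Members with low counts can pass that filter through 1 group alone.

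In siFTO cells 20 members were higher and 17 were lower than in controls, with 0.05 as the limit on edgeR's adjusted p, and 123 did not pass the test. The members called higher were 12.5% of those tested, against 19.5% of all 14965 genes tested, and those called lower were 10.6%, against 17.9%. Calls were thus a smaller share of the family than of all genes, in both directions. The family also had a lower level, with a median of 10 CPM over the members tested, against 31.6 CPM for coding genes of other chromosomes outside the ZNF genes. Of coding genes outside the family, 6.43% were called lower under 2 CPM and 24.6% over 50 CPM. From 5 to 20 CPM, 10 of 77 members were higher, against 24.4% of those other genes. In that range 6.49% of members were lower, against 14%. From 20 to 50 CPM, 13.9% of members were higher, against 25.1%, but 25% were lower, against 18.1%. Under 2 CPM the shares higher were near each other, at 13.6% of members and 13.5% of the other genes. The part of level in the family's share was not tested. The median log2 fold change of siFTO over control was 0.056 over the 160 members and 0.006 over all genes tested. With siFTO 6 alone, 9 members were higher (5.52% of 163, against 6.17% of all genes) and 6 were lower (3.68%, against 5.89%), and the median over the members was 0.158. Of these, 8 of the 9 and all 6 were among the members called with all libraries. The counts depended on which libraries were kept. They fell to 7 higher and 9 lower without control 1, and to 5 and 9 without control 2. Without control 3 they were 8 and 10, and without siFTO 4 they were 6 and 9. Without siFTO 5 there were 15 higher and 12 lower, and 11 of each were also called with all libraries. Without siFTO 6 there were 32 higher and 19 lower.

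The family did not shift as a whole by more than the libraries differed among themselves. Each library's median over the 160 members was taken as log2 CPM minus each gene's mean over the 3 controls. It was 0.062, -0.063 and 0.156 in siFTO 4, 5 and 6, against 0.038, -0.05 and 0.036 in control 1, 2 and 3. The groups overlapped, with siFTO 5 the lowest of the 6 libraries and siFTO 6 the highest. The other 800 coding genes of chromosome 19 behaved otherwise. Their medians were -0.21, -0.093 and -0.115 in siFTO 4, 5 and 6, against -0.058, 0.113 and -0.051 in control 1, 2 and 3, with no overlap of the groups. Of those 800 genes, 86 were higher (10.8%, against 19.5% of all genes) and 236 were lower (29.5%, against 17.9%), with a median log2 fold change of -0.143. In siFTO 6 alone the median of this set was -0.124.

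**Figure D1:**
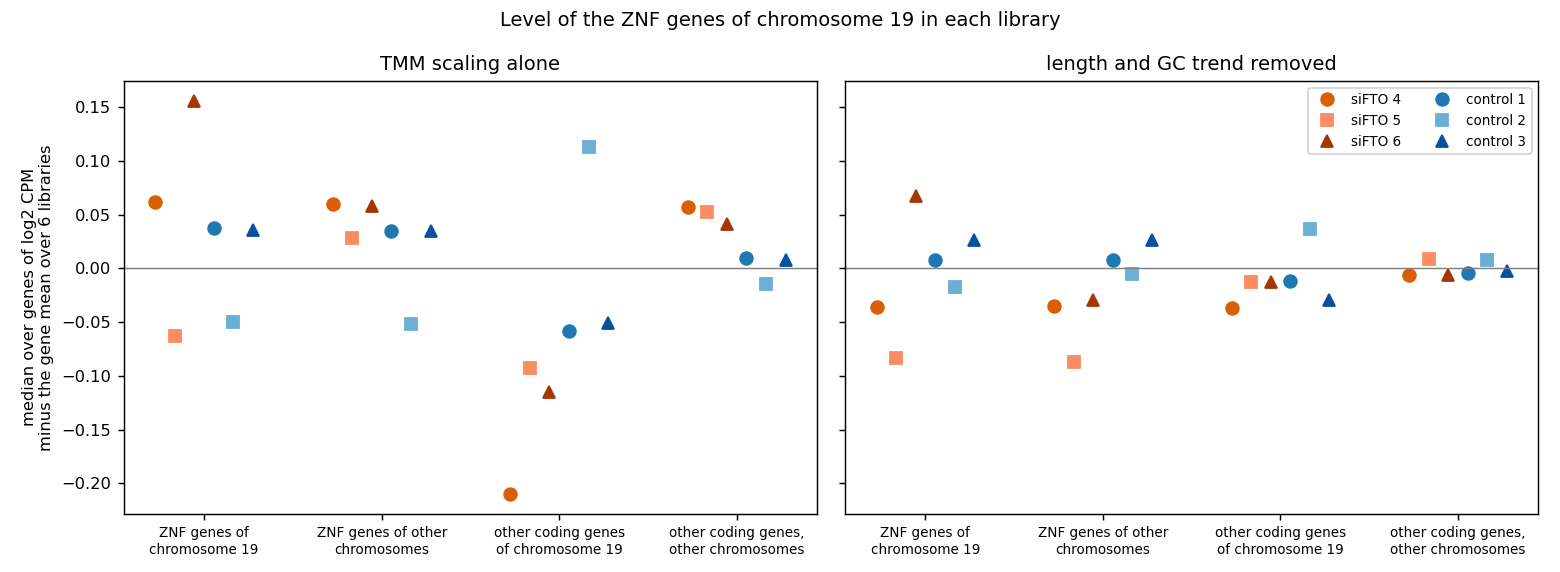
Median over genes of log2 CPM minus the gene's mean over the 3 controls, for 4 sets of genes, with TMM scaling alone (left) and with the trends on exon length and GC content removed (right). The axis label names the mean over 6 libraries, but the mean over the 3 controls was subtracted. Each point is a library, siFTO in orange shades and control in blue shades. For the ZNF genes of chromosome 19 the siFTO points lie on both sides of the controls, from -0.063 to 0.156 on the left.

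Exon length and GC content differed between the family and its neighbours, and fold changes followed both properties. Members had a median of 4988 bases of exon and 43.3% G and C, against 3142 bases and 59.2% for the other coding genes of chromosome 19. Across the 160 members, Spearman's rho of the log2 fold change was 0.22 with exon length and -0.23 with GC content, and over all 12583 coding genes tested it was 0.31 and -0.3. These are correlations across genes of the same 6 libraries, and genes are not independent replicates. A smooth trend on both properties, fitted in each library over all genes, put the members at a median log2 fold change of 0.098 by their length and GC content alone, and the other coding genes of chromosome 19 at -0.127.

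With these trends taken out, 13 members were higher (8.12%, against 16.5% of all genes) and 18 were lower (11.2%, against 18.1%) at an adjusted p under 0.05 from edgeR. The 13 and 18 included 12 of the 20 and 15 of the 17 members called before. The median over the members became -0.048, beside -0.009 over all genes, and that of the other coding genes of chromosome 19 became -0.014. The library medians were then -0.036, -0.083 and 0.067 in siFTO 4, 5 and 6, against 0.008, -0.017 and 0.026 in control 1, 2 and 3, and the groups again overlapped. The direction of the corrected median rested on single libraries. It was 0.012 without control 3 and 0.045 with siFTO 6 alone, where 6 members were higher and 3 were lower. ZNF genes of other chromosomes, of similar length (median 5292 bases) and GC content (45.9%), had 33 of 201 higher and 26 lower and a median of 0.042, which became 22, 35 and -0.035 after the correction. In siFTO 6 alone 10 of these were higher and 7 were lower.

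**Figure D2:**
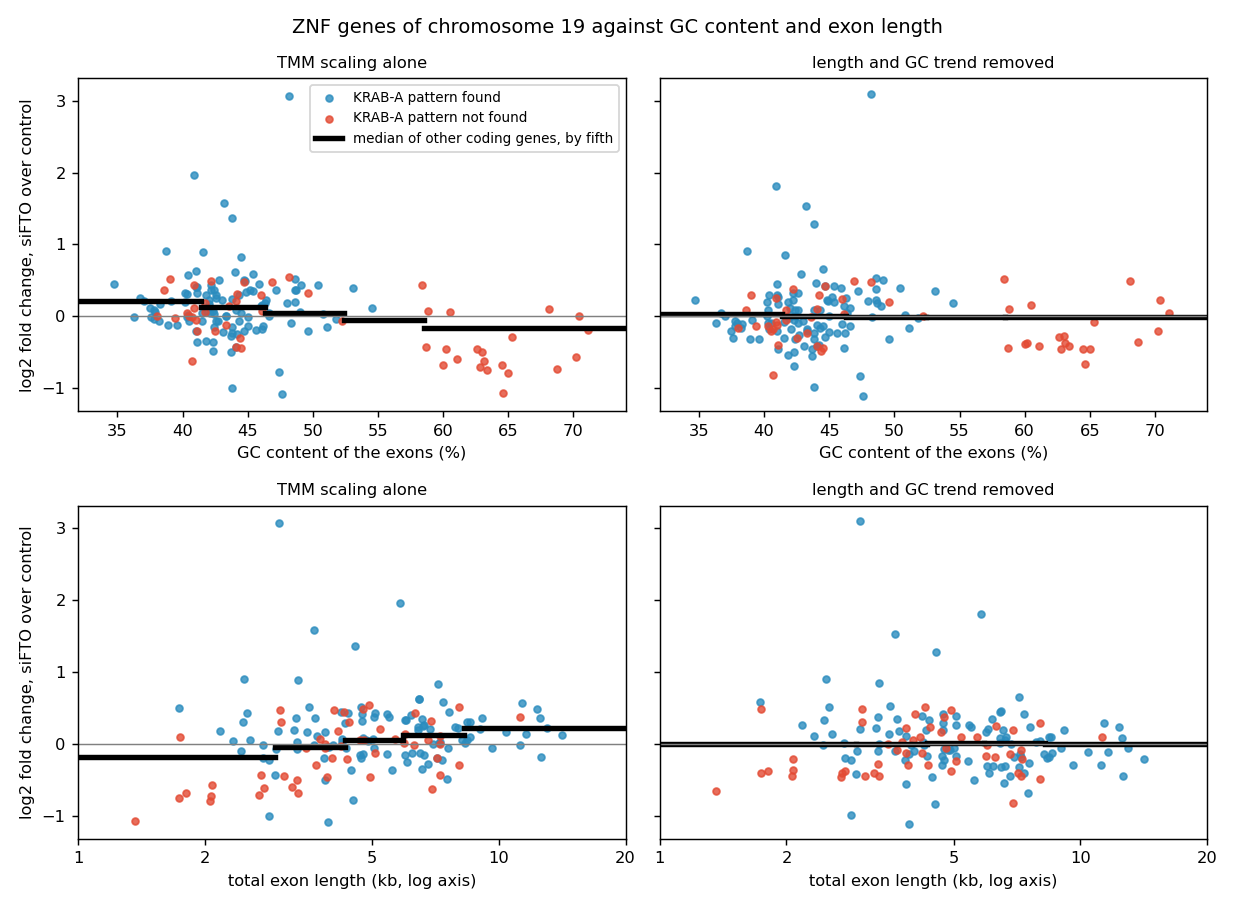
Log2 fold change of siFTO over control for the 160 members tested against GC content (top) and total exon length (bottom, log axis), with TMM scaling alone (left) and with both trends removed (right). Blue and red points are members with and without the KRAB A pattern, and black lines are the medians of other coding genes in 5 equal-sized bins of each property. The members over 58.53% GC have a median of -0.534 on the left and -0.365 on the right, and none of them has the pattern.

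A small group of GC-rich members had more falls than rises. Over 55% G and C was found in 24 members, and the KRAB pattern in none of them. Of the 21 tested, 11 were lower (52.4%, against 17.9% of all genes) and 1, ZNF526, was higher, with a median log2 fold change of -0.495. The same limit gave 31.2% lower and a median of -0.165 for the other coding genes of chromosome 19, 27.5% and -0.127 for the other coding genes elsewhere, and 26.1% and -0.142 for the ZNF genes elsewhere. After the correction 9 of the 21 were lower and 2 were higher, with a median of -0.358, against -0.007 for the other GC-rich coding genes of chromosome 19. With siFTO 6 alone, 6 of the 21 were lower and 0 were higher, and the median was -0.633, and with the correction as well 2 were lower. Leaving out siFTO 4 gave 6 lower, and leaving out any other library 8 to 10. ZNF526 did not pass without siFTO 5 (adjusted p = 0.0551 by edgeR). The limit of 55% was chosen with these data in view, and the difference between the sets was not tested.

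Few members with the KRAB pattern fell. Of 109 tested, 16 were higher (14.7%, against 19.5% of all genes) and 4 were lower (3.67%, against 17.9%). Their median log2 fold change was 0.11. After the correction 11 were higher (10.1%, against 16.5%) and 7 were lower (6.42%, against 18.1%), with a median of 0. Members with the pattern had a median GC content of 42.7%. Of other coding genes with 31.12% to 41.41% G and C, 33.4% were higher and 6.3% were lower. From there to 46.32% the shares were 28.8% and 11.5%. The part of GC content in the few falls was not tested. With siFTO 6 alone the median of members with the pattern was 0.228, against -0.009 over all genes, and 0.132 after the correction, against -0.031. The count higher was 5 without control 1, 4 without control 2, 7 without control 3, 5 without siFTO 4 and 26 without siFTO 6, and the count lower was 0 to 2 without any library but siFTO 6 and 7 without that one. Of the 51 without the pattern, 4 were higher (7.84%, against 19.5% of all genes) and 13 were lower (25.5%, against 17.9%), or 7 lower without siFTO 4. In siFTO 6 alone the median log2 fold change without the pattern was -0.033. When the GC-rich members were set aside, the 30 others without the pattern had 3 higher (10%) and 2 lower (6.67%) and a median of 0.065. Few fingers went with a high GC content. The 13 members with up to 5 fingers had a median of 60.2% G and C. Of the 11 tested, 7 were lower (63.6%, against 17.9% of all genes) and 1 was higher (9.09%, against 19.5%). In siFTO 6 alone the median log2 fold change of such members was -0.657.

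Positions are those of GENCODE 29 on GRCh38, matched by gene ID, whereas the processing notes name hg19 and GRCh37. With a gap of over 1 Mb as the border, the members formed 16 clusters. Of the 11 GC-rich members that fell, 6 were neighbours at the start of the last cluster. They lay in the stretch from ZNF628 to ZNF444 on the long arm (chr19:55476332-56160893), and the others lay elsewhere on the chromosome. The stretch was picked with these falls in view, so its share is no test. All 9 members there were tested, and ZNF579, ZNF524, ZNF784, ZNF580, ZNF581 and ZNF444 were lower (66.7%, against 17.9% of all genes). The median log2 fold change over the 9 was -0.677 and became -0.443 after the correction, with the same number lower. Leaving out 1 library gave 5 to 7 lower and 0 higher, siFTO 6 alone gave 5 lower, and siFTO 6 alone with the correction gave 2. Of the other coding genes in the stretch, 8 were tested, 2 were lower and 1 was higher, and their median was -0.02, or 0.223 after the correction. By gene span, ZNF580 and ZNF581 each overlapped 2 genes on the same strand, and ZNF524 overlapped 1 on the other strand. ZNF580 and ZNF581 overlapped each other, so their 2 falls may not be separate.

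In the cluster from ZNF175 to ZNF331, where the KRAB pattern was found in 97.4% of members, 6 of 24 tested were higher (25%, against 19.5% of all genes) and 3 were lower (12.5%, against 17.9%), and in siFTO 6 alone 5 of 24 were higher and 0 were lower. The 6 include ZNF350 and ZNF614, which were high in siFTO 4 and 5 only. In the cluster from ZNF101 to ZNF254, which had the lowest median GC content of the clusters with more than 1 member (38.6%), 3 of 17 were higher (17.6%) and 0 were lower, and 0 passed in either direction after the correction or in siFTO 6 alone. The cluster from ZNF565 to ZNF573 had 0 of 16 past the threshold with all libraries and 0 of 18 in siFTO 6 alone, and its summed level was 295.7, 261.5 and 313.2 CPM in siFTO 4, 5 and 6, against 274.1, 244.5 and 280.2 CPM in control 1, 2 and 3.

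**Figure D3:**
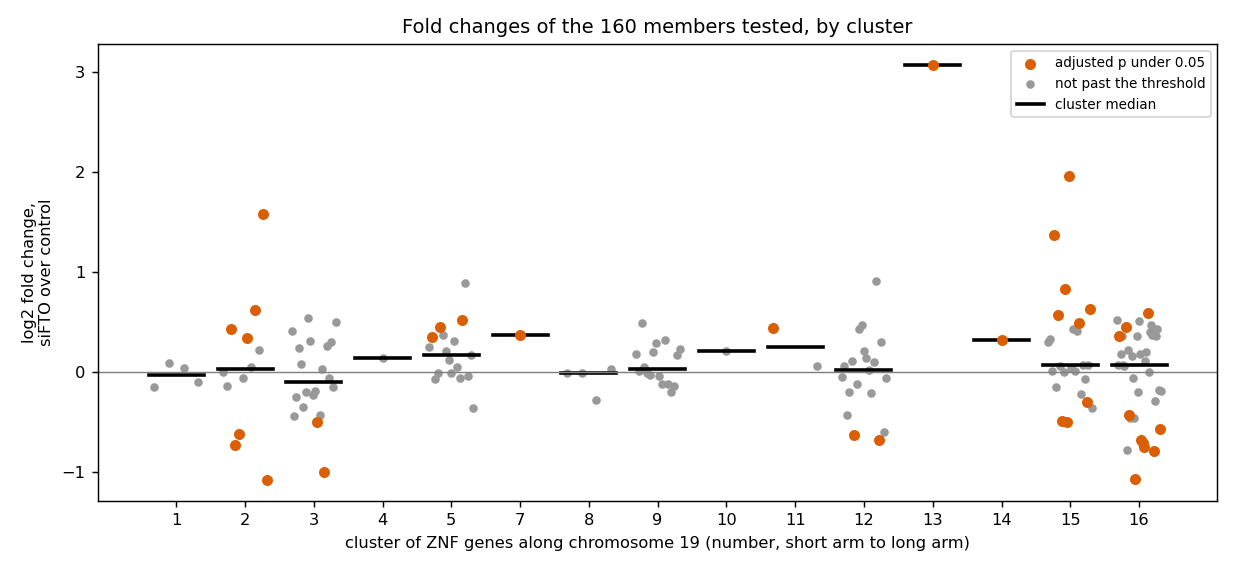
Log2 fold change of siFTO over control for each of the 160 members tested, by cluster along chromosome 19. Orange points passed an adjusted p under 0.05 from edgeR, grey points did not, and bars are cluster medians. Cluster 16, which starts with ZNF628, holds 7 of the 17 members called lower, and ZNF114 stands alone at 3.07 in cluster 13.

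Among the 160 members tested, ZNF114 had the largest rise. It had 47, 56 and 63 counts in siFTO 4, 5 and 6, against 5, 7 and 8 counts in control 1, 2 and 3, or 3.33, 3.48 and 4.59 CPM, against 0.465, 0.469 and 0.413 CPM. All 3 siFTO libraries lay far above all controls, and siFTO 6, with few mesenchymal transcripts, was the highest. At these control levels ZNF114 passed the filter on low counts only through the siFTO group, so it had to differ to be tested, and it has no value when 10 counts are required in every library. The log2 fold change was 3.07 (SE 0.28, adjusted p = 0.00019 by edgeR), 3.1 after the correction and 3.34 (adjusted p = 0.000342) in siFTO 6 alone. ZNF114 encodes a KRAB protein in which 3 fingers were found, and its gene span overlapped that of a gene on the other strand.

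The other rises among members tested were smaller. ZNF611 had 6.37, 5.66 and 7.73 CPM in siFTO 4, 5 and 6, against 4.19, 2.81 and 4.13 CPM in control 1, 2 and 3 (log2 fold change 0.83, SE 0.21, adjusted p = 0.0136 by edgeR). ZNF845 of the same cluster, in whose protein 26 fingers were found, had 20.1, 17.5 and 24.4 CPM, against 12.7, 10.8 and 16.3 CPM (0.63, SE 0.17, adjusted p = 0.0174). Both had their highest level in siFTO 6, with no overlap of the groups. ZNF611 lost its call without control 1, 2 or 3 (adjusted p = 0.0605, 0.0712 and 0.0559 by edgeR), and ZNF845 without control 1 or 2 (adjusted p = 0.099 and 0.0961). ZNF468, of the same cluster, had 37.1, 31.4 and 40.1 CPM in siFTO 4, 5 and 6, against 25.5, 21.4 and 26.2 CPM in control 1, 2 and 3 (0.57, SE 0.12, adjusted p = 0.00579 by edgeR, and 0.29 with adjusted p = 0.0465 after the correction), and 55.8% of its 50-base stretches occurred elsewhere.

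ZNF561 had the smallest SE among the 8 largest rises, with 40.3, 36.6 and 39.1 CPM in siFTO 4, 5 and 6, against 26.3, 22.1 and 27.2 CPM in control 1, 2 and 3 (log2 fold change 0.62, SE 0.11, adjusted p = 0.00229 by edgeR). It passed in each alternative that was run. ZNF587, whose finger is printed above, had 10.5, 9.02 and 11.3 CPM, against 7.26, 6.23 and 7.03 CPM (0.59, SE 0.15, adjusted p = 0.0143), and its near copy ZNF417 had 9.98, 9.33 and 10.6 CPM, against 7.35, 6.63 and 7.91 CPM (0.45, SE 0.15, adjusted p = 0.0355). Of their 50-base stretches, 35.5% in ZNF587 and 37.7% in ZNF417 also occur in other genes, and how reads from such stretches were counted is not known, so both values are uncertain. ZNF587 did not pass without control 1, 2 or 3 or without siFTO 4 (adjusted p of 0.0606, 0.0675, 0.058 and 0.0567 by edgeR), and ZNF417 lost its call whichever library was left out (0.053 to 0.106). ZNF714 had 8.42, 7.09 and 7.14 CPM, against 5.49, 4.49 and 5.84 CPM (0.52, adjusted p = 0.04), and did not pass after the correction (0.29, adjusted p = 0.179) or without any library but siFTO 6 (adjusted p from 0.0637 without siFTO 5 to 0.158 without siFTO 4).

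Among the members called higher, 3 followed siFTO 4 and 5. ZNF699, the human relative of the Drosophila gene hangover, had 2.9, 3.11 and 1.68 CPM in siFTO 4, 5 and 6, against 1.12, 0.201 and 1.24 CPM in control 1, 2 and 3 (log2 fold change 1.58, SE 0.47, adjusted p = 0.0232 by edgeR). ZNF614 had 3.4, 5.16 and 0.802 CPM, against 0.558, 0.737 and 1.03 CPM (1.96, SE 0.56, adjusted p = 0.0202). ZNF350, also known as ZBRK1, a repressor that binds BRCA1, had 2.9, 3.17 and 1.09 CPM, against 0.465, 1.47 and 0.775 CPM (1.37, SE 0.46, adjusted p = 0.0378). The controls alone would not have brought these 3 members past the filter on low counts. ZNF699 had 3 counts in control 2, and ZNF614 and ZNF350 had 6 and 5 counts in control 1. Their siFTO libraries thus helped to decide that they were tested. For ZNF614 and ZNF350 siFTO 6 lay within the range of the controls, and in siFTO 6 alone the log2 fold changes of ZNF699, ZNF614 and ZNF350 were 0.96, -0.01 and 0.24 (adjusted p of 0.326, 0.994 and 0.83 by edgeR). ZNF699 also lost its call without control 1, 2 or 3 or siFTO 4 or 5 (adjusted p from 0.0728 to 0.104), as did ZNF614 (0.0594 to 0.122) and ZNF350 (0.0641 to 0.185). ZNF350 also missed the threshold after the correction (adjusted p = 0.0568).

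The largest falls were those of ZNF846 and ZNF524. ZNF846 had 1.63, 1.74 and 1.39 CPM in siFTO 4, 5 and 6, against 3.44, 4.15 and 2.58 CPM in control 1, 2 and 3 (log2 fold change -1.08, SE 0.26, adjusted p = 0.00909 by edgeR), and lost its call without control 1 or 2 (adjusted p = 0.0554 and 0.0619) and in siFTO 6 alone (-1.27, adjusted p = 0.0599). ZNF524 had 11.6, 15.4 and 13.7 CPM, against 24.4, 37.5 and 23.3 CPM (-1.07, SE 0.19, adjusted p = 0.00249). The correction left ZNF846 at -1.11 and brought ZNF524, at 64.6% G and C, to -0.66 (adjusted p = 0.00412). All siFTO libraries lay below all controls for both genes. ZNF763 had 1.06, 0.746 and 0.948 CPM, against 1.58, 2.01 and 1.86 CPM (-1, SE 0.28, adjusted p = 0.0178), from 12 to 15 counts in each siFTO library. It did not pass by DESeq2 (adjusted p = 0.0836) or without control 1, 2 or 3 or siFTO 5 (adjusted p from 0.062 to 0.0968 by edgeR).

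The next 5 falls were GC-rich genes. ZNF784 had 7.29, 7.03 and 7.36 CPM in siFTO 4, 5 and 6, against 11.4, 14.7 and 11.3 CPM in control 1, 2 and 3 (log2 fold change -0.79, SE 0.15, adjusted p = 0.00377 by edgeR). ZNF581 had 25.3, 33.5 and 30.1 CPM, against 44.9, 58.2 and 46.8 CPM (-0.75, SE 0.13, adjusted p = 0.00247). ZNF580 had 23.8, 27.3 and 26 CPM, against 43.8, 46.9 and 35.4 CPM (-0.71, SE 0.12, adjusted p = 0.00218). In these 3 neighbours the groups did not overlap, and control 2 was the highest library each time. ZNF358, whose GC-rich finger is printed above, had 30.2, 39.6 and 33 CPM, against 50.3, 75.6 and 44.8 CPM (-0.73, SE 0.18, adjusted p = 0.0118). ZNF428 had 39.1, 37.2 and 36.8 CPM, against 48.1, 78.2 and 54.3 CPM (-0.68, SE 0.16, adjusted p = 0.0085). After the correction the 5 log2 fold changes lay between -0.46 and -0.36 and each still passed (adjusted p from 0.00533 to 0.0443), but with siFTO 6 alone and the correction together none did (0.0637 to 0.132). ZNF428 missed it in siFTO 6 alone without the correction (adjusted p = 0.0545). ZNF358 also lost its call without control 1 or siFTO 4 (adjusted p = 0.0537 and 0.0546).

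**Figure D4:**
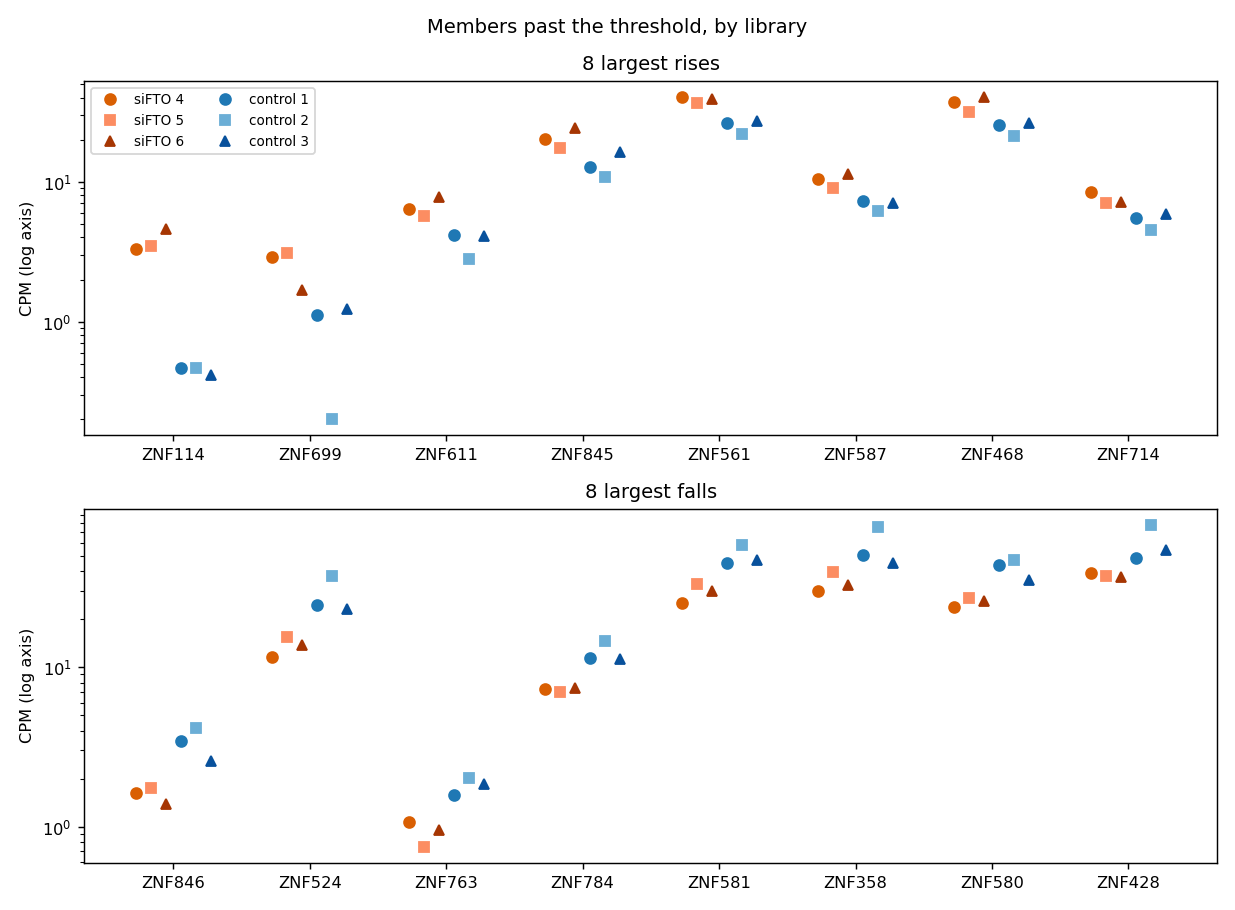
CPM on TMM-scaled library sizes (log axis) of the 8 largest rises (top) and the 8 largest falls (bottom) among members past the threshold whose groups did not overlap, with siFTO libraries in orange shades and controls in blue shades. Each point is a library. For ZNF114 the siFTO points lie from 3.33 to 4.59 CPM and the control points from 0.413 to 0.469 CPM.

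The 5 members of highest level were 2 called and 3 not called. ZNF146, a protein of zinc fingers alone, had 159.9, 140.0 and 161.2 CPM in siFTO 4, 5 and 6, against 139.5, 127.1 and 140.3 CPM in control 1, 2 and 3 (log2 fold change 0.18, SE 0.09, adjusted p = 0.134 by edgeR). ZNF787 had 62.7, 79.3 and 69.2 CPM, against 79.1, 94.2 and 85.4 CPM (-0.29, SE 0.11, adjusted p = 0.0538), just outside the threshold, and stood at -0.08 (adjusted p = 0.4) after the correction. It passed by DESeq2 (adjusted p = 0.0409) and without siFTO 5 (adjusted p = 0.0285 by edgeR). ZNF121 differed by less than its SE of 0.09, at 70.6 ± 4.07 CPM in siFTO and 70.8 ± 5.18 CPM in control cells (SD, n = 3 each). ZNF317 rose to 59.3, 56.5 and 59.0 CPM, against 46.5, 36.5 and 47.0 CPM (0.43, SE 0.11, adjusted p = 0.013), and ZNF444, a SCAN domain protein, fell to 40.4, 46.5 and 42.6 CPM, against 56.5, 66.0 and 51.7 CPM (-0.43, SE 0.11, adjusted p = 0.0134). Without control 1 or siFTO 4 neither passed (adjusted p of 0.0505 and 0.051 for ZNF317, and 0.0562 and 0.0626 for ZNF444), nor in siFTO 6 alone (0.087 for ZNF317 and 0.0977 for ZNF444). At the threshold, ZNF473 and ZNF211 lay just inside (adjusted p of 0.0419 and 0.042) and ZNF446 just outside (0.051).

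Among members with a known role, the silencers of transposable elements did not pass the test. ZNF91, which represses SVA elements, had 19.5, 15 and 22.0 CPM in siFTO 4, 5 and 6, against 17.6, 15 and 17.5 CPM in control 1, 2 and 3 (log2 fold change 0.17, SE 0.15, adjusted p = 0.393 by edgeR, and -0.11 after the correction). ZNF93, which represses LINE-1 elements, had 1.06, 1.43 and 1.53 CPM, against 1.58, 1.81 and 1.76 CPM (-0.36, SE 0.26, adjusted p = 0.296). The siFTO libraries of ZNF93 lay below all controls, at 15 to 23 counts each. For ZNF224, a repressor of the aldolase A gene, the log2 fold change was -0.2 (SE 0.18, adjusted p = 0.396), and for ZNF808, whose loss in humans impairs formation of the pancreas, 0.07 (SE 0.18, adjusted p = 0.775).

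ZNF274, which binds the 3' ends of other zinc finger genes and recruits SETDB1 there, did not pass the filter. It had 60, 73 and 7 counts in siFTO 4, 5 and 6, against 6, 2 and 7 counts in control 1, 2 and 3, so that siFTO 4 and 5 were high and siFTO 6 was level with the controls. The imprinted gene ZNF331 had at most 4 counts in a library, and ZNF154, ZNF671 and ZNF382, genes often methylated in tumours, had at most 6. ZNF582, another of these, had 0 counts in all 6 libraries. ZNF568, which in the mouse represses a placental transcript of Igf2, had 14, 6 and 5 counts in siFTO 4, 5 and 6, against 5, 9 and 20 counts in control 1, 2 and 3.

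The pattern of ZNF274 was shared by members with next to no counts in the controls. Up to 3 counts over the 3 controls were found for 58 members, and 12 of these (20.7%) had 5 or more in each of siFTO 4 and 5 and fewer than 5 in siFTO 6. The same rule found 2 of 22 (9.09%) ZNF genes of other chromosomes, 14 of 305 (4.59%) other coding genes of chromosome 19 and 559 of 5028 (11.1%) other coding genes elsewhere. Over all gene IDs, coding or not, it found 722 of 40024 (1.8%). These sets were chosen by the values shown and carry no test. Of the 12, 7 lay in the last cluster (ZNF134, ZNF304, ZNF329, ZNF530, ZNF548, ZNF547 and ZNF772), and the others were ZNF175 and ZNF615 in the cluster that starts with ZNF175, ZNF559, ZNF302 and ZNF222. In bulk RNA, a few cells of another kind and a low level in every cell cannot be told apart.

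ZNF134 had 87 and 95 counts in siFTO 4 and 5 and 0 in siFTO 6, against 0 in each control. On library totals this is 6.42 and 6.05 CPM, at least 22.2-fold higher than the floor of 3 counts per control library. ZNF175 had 79 and 82 counts in siFTO 4 and 5 and 0 in siFTO 6, against 0 in each control, or at least 19.1-fold higher than that floor. For ZNF304 the counts were 55, 81 and 0, against 1, 0 and 0. The other 9 had between 6 and 43 counts in siFTO 4 and 5 and 0 in siFTO 6. Both of these libraries also held the mesenchymal transcripts named above, and their part in these counts was not tested.

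The promoters of ZNF134 and ZNF175 are shown because these genes were silent in 4 libraries and counted in 2. They are from RefSeq on GRCh38.p14, 300 bases from 250 before to 50 after the start of the gene, and the capitals mark each CG, the letters that carry DNA methylation.
ZNF134, chr19:57613992-57614291, plus strand: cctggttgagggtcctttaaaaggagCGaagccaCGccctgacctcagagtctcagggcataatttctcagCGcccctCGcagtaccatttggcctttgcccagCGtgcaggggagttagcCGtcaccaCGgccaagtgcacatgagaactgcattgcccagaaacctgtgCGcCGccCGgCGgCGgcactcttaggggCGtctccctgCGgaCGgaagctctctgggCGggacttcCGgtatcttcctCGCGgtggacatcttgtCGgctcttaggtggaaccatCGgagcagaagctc
ZNF175, chr19:51571033-51571332, plus strand: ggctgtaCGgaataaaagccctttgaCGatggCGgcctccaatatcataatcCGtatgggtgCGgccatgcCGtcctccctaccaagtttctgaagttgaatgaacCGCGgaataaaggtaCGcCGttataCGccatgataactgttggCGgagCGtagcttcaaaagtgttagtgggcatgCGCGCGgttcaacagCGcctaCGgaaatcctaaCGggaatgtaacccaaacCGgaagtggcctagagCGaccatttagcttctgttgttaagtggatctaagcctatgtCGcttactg

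ZNF134 had 21 CG and ZNF175 had 22, and 39.5% and 37.7% of all 35116 promoters held as many or more. CG reads the same on both strands. Of the 240 members, 209 were matched to a promoter by symbol, with a median of 20 CG, against 14 over all promoters. Of the 12 members, 11 were matched, with a median of 21 CG (range 12 to 30). No methylation of DNA was measured in the data used here.

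**Figure D5:**
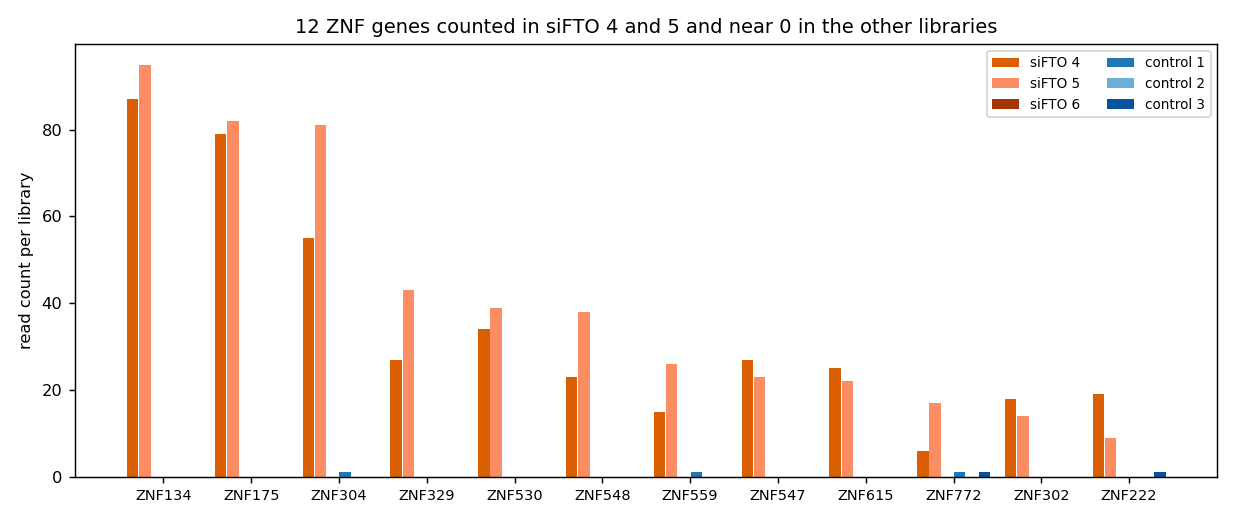
Read counts of 12 members in each library, with siFTO in orange shades and control in blue shades. Bars start at 0. The bars of siFTO 4 and 5 reach from 6 to 95 counts, siFTO 6 has 0 throughout, and no control has more than 1.

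The partners of the KRAB proteins showed no common direction before the correction, and more falls than rises after it. Of 33 listed genes of the co-repressor machinery, all tested, 6 were higher (18.2%, against 19.5% of all genes) and 5 were lower (15.2%, against 17.9%), with a median log2 fold change of 0.02. These shares were near those of all genes. After the correction 3 were higher (9.09%, against 16.5% of all genes) and 9 were lower (27.3%, against 18.1%), with a median of -0.081. In siFTO 6 alone the median was 0.086, or -0.017 after the correction. The uncorrected counts were 3 higher and 2 lower without control 1. Without control 2, control 3, siFTO 4 or siFTO 5 the uncorrected count lower was 1 or 2. TRIM28 had 618.5, 727.9 and 707.3 CPM in siFTO 4, 5 and 6, against 724.8, 826.1 and 854.1 CPM in control 1, 2 and 3 (-0.23, SE 0.1, adjusted p = 0.0883 by edgeR). The groups of TRIM28 overlapped at siFTO 5 and control 1. For SETDB1 the log2 fold change was 0.08 with adjusted p = 0.606 by edgeR (turning to -0.05 after the correction), and the heterochromatin proteins CBX1, CBX3 and CBX5 of 0.03, -0.13 and 0.13 (adjusted p of 0.762, 0.236 and 0.303).

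ATF7IP, the partner that stabilises SETDB1, rose to 33, 32.1 and 32.4 CPM in siFTO 4, 5 and 6, against 21.9, 23.4 and 25.6 CPM in control 1, 2 and 3 (log2 fold change 0.46, SE 0.1, adjusted p = 0.00569 by edgeR), and stood at 0.14 after the correction (adjusted p = 0.27). UHRF1, which brings the methyltransferase DNMT1 to replicated DNA, rose by 0.68 (SE 0.16, adjusted p = 0.0094), or 0.69 after the correction, but not without control 1 (adjusted p = 0.0823). The chromatin remodellers ATRX and SMARCAD1 rose by 0.57 and 0.49 (adjusted p of 0.00282 and 0.00757), and after the correction ATRX did not pass (0.2, adjusted p = 0.114) and SMARCAD1 did (0.3, adjusted p = 0.0263). Subunits of the NuRD complex, which TRIM28 recruits, went both ways. MBD3 fell to 65.7, 86.1 and 72.2 CPM, against 100.9, 124.2 and 113.3 CPM (-0.6, SE 0.12, adjusted p = 0.00384), and stood at -0.64 in siFTO 6 alone. HDAC1 and RBBP7 fell by 0.26 and 0.25 (adjusted p of 0.0391 and 0.0365 by edgeR). GATAD2A of the same complex rose by 0.31 (adjusted p = 0.0166 by edgeR), or 0.27 after the correction. In siFTO 6 alone HDAC1, RBBP7 and GATAD2A stood at -0.14, -0.16 and 0.36. MTA1 of the same complex and the H3K9 methyltransferase EHMT2 each fell by 0.3 on the log2 scale (adjusted p of 0.017 and 0.023), and neither passed without control 1 (adjusted p of 0.0685 and 0.0567), control 3 (0.0554 and 0.0798) or siFTO 4 (0.0924 and 0.115). EHMT2 also did not pass without control 2 or siFTO 5 (0.0812 and 0.0777), and an offset for GC content alone brought MTA1 to -0.06 (adjusted p = 0.601). In siFTO 6 alone ATF7IP, SMARCAD1, MTA1 and EHMT2 did not pass (adjusted p of 0.0814, 0.0522, 0.257 and 0.411 by edgeR).

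The members' transcripts held fewer copies of GGACT, a form of the m6A consensus, than coding transcripts outside the ZNF genes. The median was 0.724 per kb on the transcript strand, against 0.771 per kb for ZNF genes of other chromosomes, 1.15 per kb for the other coding genes of chromosome 19 and 0.933 per kb for the other coding genes elsewhere. Across the 160 members Spearman's rho of this density with the log2 fold change was -0.03, and 0.03 after the correction. A match is a description of the letters and not of a methylated site.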

How the data were processed

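The members and gene lists were chosen with earlier results of these data known. Each sample had 1 table of raw counts per gene, as deposited, with no normalization. Alignment was with TopHat2 2.0.11 and counting with HTSeq, by the submitters' processing notes, which list hg19 and GRCh37 as builds. Which annotation release and which strand option were used is not given in the sources used here. With edgeR 4.0.16 in R 4.3.3, genes were filtered (filterByExpr, minimum count 10, minimum total 15), scaled by TMM and fitted with a quasi-likelihood model with group as the only term. Tests were two-sided, with Benjamini-Hochberg adjustment over all 14965 genes tested and a threshold of 0.05. SE is the size of the log2 fold change divided by the square root of F. CPM use TMM-scaled sizes, except that markers and genes near 0 in the controls use library totals.

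Union exon length, GC content and positions came from GENCODE 29, matched by ID without version (56753 of 60483 IDs). The correction fitted, in each library, log2 CPM minus the gene mean with smooth terms (mgcv 1.9.3, basis 10) on log2 length and GC and used the fits as offsets. Scripts were tested on simulated data with and without a length trend. Named members are the 8 largest rises and 8 largest falls past the threshold with no overlap and a mean log2 CPM of at least 0, the 5 highest, 12 with a known role, 6 co-repressors with up to 3 changes in each direction, and FTO. ZNF417, ZNF614, HDAC1, RBBP7, GATAD2A and the members called only by a count are outside this rule and were chosen after their values were seen. Alternatives were other scalings, filters, DESeq2 1.42.0, limma 3.58.1 voom, thresholds and libraries left out.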

Additional observations from a re-analysis of the deposited data

How the results depend on the processing

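Beside the 20 members higher, 17 lower and the median of 0.056, library totals alone gave 35 higher and a median of 0.176, where the median of all genes moved to 0.126. No filter gave 33 higher among 216 tested. Length and GC offsets gave 13 higher and a median of -0.048, and GC offsets alone 12 higher. With siFTO 4 and 5 left out together there were 9 higher, 6 lower and a median of 0.158, and with the offsets as well, added after seeing the data, 6 higher and 3 lower and a corrected median of 0.045. A threshold of 0.01 gave 3 higher and 8 lower, and 0.1 gave 32 higher. Among members with under 10% of 50-base stretches shared, also added after seeing the data, 11 of 115 were lower. Leaving out 1 library gave 5 to 32 higher, 9 to 19 lower and corrected medians from -0.089 to 0.012. FTO had -0.46 (adjusted p = 0.0576 by edgeR) under library totals and -0.74 to -0.47 with 1 library left out. No member called by all 6 libraries was called in the other direction in any alternative (0 in each).

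ZNF614, called higher at 1.96 and chosen after its values were seen, stood at -0.01 with siFTO 4 and 5 left out and at -0.18 with the offsets as well. Among the genes of the naming rule, directions turned for genes not called. ZNF121 (main -0.0) stood at 0.12 under library totals, 0.08 with siFTO 4 and 5 left out and -0.06 to 0.04 with 1 library left out. ZNF91 stood at -0.11, -0.03 and -0.0 with offsets for both, length and GC. ZNF808 stood at -0.05 and -0.04 with offsets for both and for GC, and at -0.05 to 0.14 with 1 (-0.0 without control 3) library left out. ZNF224 stood at 0.02 with siFTO 4 and 5 left out. SETDB1 stood at -0.05 and -0.04 with offsets for both and for length, -0.04 to 0.14 with 1 library left out and -0.01 with siFTO 4 and 5 left out and offsets. CBX5 stood at -0.18, -0.13 and -0.22 in those 3 offset fits, and CBX1 at -0.01 (without siFTO 6) to 0.09 with 1 library left out. The causes were not tested. Leaving libraries out of the GC-rich, KRAB, stretch and co-repressor counts was added after seeing the data. No paired analysis was possible because the replicate numbers of the groups are not shared. The 3 libraries per group limit every test, and members at a few counts could not be compared at this depth.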
